A study of Rattus norvegicus with 9 samples.

Results

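The genes described here are 9 members of the transforming growth factor beta (TGF-beta) system in rat liver: the ligands Tgfb1, Tgfb2 and Tgfb3, the receptors Tgfbr1, Tgfbr2 and Tgfbr3, the latency proteins Ltbp1 and Ltbp2, and the inhibitory Smad7. They were chosen by name with earlier results of these data known, and all 9 were found among the 32883 genes of the deposited table. Liver mRNA came from 9 male Sprague-Dawley rats, 3 in each group, and each rat gave 1 library. The normal control rats received no carcinogen. The DEN model rats and the PZH administration rats both carried the same carcinogen treatment, 0.01% diethylnitrosamine (DEN, which damages liver cells and gives rise to liver tumours) injected into the abdomen weekly within a 16-week protocol. PZH administration rats were in addition given Pien-Tze-Huang (PZH), a Chinese patent medicine. Rats were killed at several time points and PZH was given at more than 1 dose level, and neither is stated for the single rats sequenced. The treatment label names PZH for the DEN model rats too, so groups were read from the initial of the rat names (N, M and G) and the description of the groups in the methods.

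TGF-beta ligands are made as precursors, folded with their own propeptide into a latent complex that cannot bind a receptor. Latent TGF-beta binding proteins tie this complex to the extracellular matrix, from which integrins, proteases or thrombospondin release the ligand. The free ligand brings a type II and a type I receptor kinase together, helped by the coreceptor betaglycan, and the type I receptor phosphorylates Smad2 and Smad3, which enter the nucleus with Smad4. Smad7 is a feedback inhibitor that binds the type I receptor. In the liver the pathway restrains hepatocyte growth and drives stellate cells to become matrix-producing myofibroblasts.

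Libraries of normal control rats held 16115709 to 16412520 counts, those of DEN model rats 15259441 to 16641954 and those of PZH administration rats 14922973 to 27161496. Levels are given as CPM, the counts scaled to an equal library size corrected with TMM factors. These factors were 0.731 to 0.799 for normal control, 1.21 to 1.58 for DEN model and 0.864 to 0.942 for PZH administration libraries. The factors therefore differed by group, and scaling by library totals instead shifted the median gene by 0.86 (log2) in the comparison of DEN model with normal control rats, by -0.67 in that of PZH administration with DEN model rats and by 0.23 in that of PZH administration with normal control rats. A count of 3, taken as the detection floor, corresponded to 0.125 to 0.252 CPM. The summed level of 7 hepatocyte markers was 158000 to 169000 CPM in normal control livers, 34300 to 77500 CPM in DEN model livers and 133000 to 169000 CPM in PZH administration livers. These are liver tissue samples of mixed cells, so fewer cells of a type and less RNA per cell cannot be told apart. Which part of each liver was sampled is not stated.

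The table places Tgfb1 (ENSRNOG00000020652) at chr1:82480195-82497199, Tgfb2 (ENSRNOG00000002418) at chr13:105039853-105141030 and Tgfb3 (ENSRNOG00000009867) at chr6:109913757-109935533. Tgfbr1 (ENSRNOG00000007036) lies at chr5:63050758-63119635, Tgfbr2 (ENSRNOG00000013265) at chr8:124312754-124399494 and Tgfbr3 (ENSRNOG00000002093) at chr14:3506339-3682545. Ltbp1 (ENSRNOG00000033090) lies at chr6:21203502-21600451, Ltbp2 (ENSRNOG00000012094) at chr6:108500112-108596569 and Smad7 (ENSRNOG00000018359) at chr18:71395830-71424157. The genome build of these positions is not given in the sources used here. Ltbp2 and Tgfb3 both lie on chromosome 6, as does Ltbp1.

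All 9 genes also had a promoter window in RefSeq (build GRCr8, whose coordinates differ from those of the table), from 250 bases before to 50 after the start. Each window was searched on both strands for 5 letter strings: TGACGTCA (the cAMP response element), TGACTCA (bound by AP-1), GGGCGG (bound by Sp1), TATAAA (the core promoter string bound by TBP) and CAGAC (bound by Smads). Tgfb1 is shown as the most abundant ligand per length, Tgfbr1 and Tgfbr3 as a receptor that rose beside a receptor that did not pass the test, and Ltbp1 as a latency protein that rose. Each sequence is the part of the window that lies before the start of the RefSeq gene, 5′ to 3′ on the gene's strand, with capitals on the strings found on either strand. Tgfb1 is on the plus strand at chr1:90324062-90324311, Tgfbr1 on the plus strand at chr5:66449148-66449347, Tgfbr3 on the plus strand at chr14:2634044-2634293 and Ltbp1 on the minus strand at chr6:26177347-26177551.
Tgfb1: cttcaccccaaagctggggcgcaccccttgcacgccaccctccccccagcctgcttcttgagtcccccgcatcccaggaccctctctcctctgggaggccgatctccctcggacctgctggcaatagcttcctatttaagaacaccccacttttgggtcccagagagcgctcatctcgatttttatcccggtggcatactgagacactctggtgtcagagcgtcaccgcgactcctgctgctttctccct
Tgfbr1: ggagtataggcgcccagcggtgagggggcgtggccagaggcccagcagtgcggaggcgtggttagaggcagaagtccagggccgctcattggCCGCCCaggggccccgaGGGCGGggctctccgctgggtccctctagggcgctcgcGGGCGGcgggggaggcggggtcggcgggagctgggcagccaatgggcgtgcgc
Tgfbr3: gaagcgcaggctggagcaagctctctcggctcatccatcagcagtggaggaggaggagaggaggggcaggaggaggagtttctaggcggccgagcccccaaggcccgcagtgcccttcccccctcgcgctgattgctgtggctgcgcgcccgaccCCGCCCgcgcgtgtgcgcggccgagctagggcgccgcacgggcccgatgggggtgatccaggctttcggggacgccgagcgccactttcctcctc
Ltbp1: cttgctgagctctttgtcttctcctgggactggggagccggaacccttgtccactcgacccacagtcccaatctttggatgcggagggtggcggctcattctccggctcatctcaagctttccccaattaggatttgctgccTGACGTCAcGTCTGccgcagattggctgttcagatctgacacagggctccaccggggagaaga

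The Ltbp1 window held TGACGTCA, a string found in 1.83% of 33469 rat promoter windows of this length, followed by CAGAC read on the other strand (50.1% of windows). GGGCGG, present in 33.1% of windows, occurred in the windows of Tgfbr1, Tgfbr2, Tgfbr3, Ltbp2 and Smad7, and 3 times in that of Tgfbr1. CAGAC occurred 3 times in the Ltbp2 window. The windows of the 3 ligands held none of the 5 strings, which says only that these letters are not in those windows. TGACTCA and TATAAA, found in 4.63% and 14.2% of all windows, occurred in none of the 9. The GC content of the 9 windows ran from 47.7% for Tgfb3 to 77.7% for Smad7, against a median of 51.7% over all windows.

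The first comparison, DEN model against normal control rats, asks which members differ in the livers given the carcinogen. All 3 ligands, both latency proteins and the type I receptor were higher in DEN model livers, by factors of 1.62 (Tgfbr1) to 42.4 (Ltbp2), while the type II receptor, the coreceptor and Smad7 did not pass the test. By the quasi-likelihood test of edgeR, 6 of the 9 were called at a Benjamini-Hochberg adjusted p under 0.05, all higher, where 45.8% of the 14255 genes tested were called, 25.3% higher and 20.5% lower. The study used a log fold change of more than 2 either way and P under 0.001, read here as log2 and unadjusted. At these thresholds 3 of the 9 were called, Tgfb2, Ltbp1 and Ltbp2, where 12.3% of all genes were and 8.81% were higher. The study reported more genes at its thresholds than passed here, so this reading does not reproduce its own lists. The 9 had a median log2 fold change of 1.28, beside 0.03 over all genes tested. The values of the 2 groups did not overlap for 6 members, all higher, where 58.8% of all genes did not overlap and 31.4% were higher without overlap. Because so many genes differed in this comparison, the count of members has to be read against these shares. The members were chosen with earlier results of these data known, so here and below such counts are a description and no unbiased contrast.

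The second comparison, PZH administration against DEN model rats, asks which members differ when the carcinogen is given with PZH. The 3 ligands and Ltbp2 were lower in PZH administration livers, each at 0.331 to 0.5 times the DEN model level. In the same test 4 of the 9 were called, all lower, where 19.1% of 14272 genes were called, 10.3% lower and 8.72% higher. By edgeR's quasi-likelihood test 0 of the 9 passed the thresholds of the study, which 2.43% of all genes passed, 6 had an unadjusted p under 0.05, and DESeq2 put 0 past those thresholds. The fit of all 9 rats, library totals and the limma settings each called 6 of the 9 at an adjusted p under 0.05. The members added were Ltbp1 and Tgfbr1. Over all genes these settings called 2889, 6232 and 4987 to 5764, beside 2722 in the main fit. In contrast, 0 members were called without M13, 1 without M24 or without G28 and 2 without G42. Over all genes the fits without M13, M24, G28 and G42 called 271, 725, 1178 and 1221. The values of the 2 groups did not overlap for 6 members, all lower, beside 40.9% of all genes (22.5% lower), and the median log2 fold change was -0.98 beside 0.01. The first and second comparisons share the DEN model rats, so their values are given side by side and are not independent of each other.

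Rats given DEN with PZH were also set against normal control rats, a comparison that shares a group with each of the others. Ltbp1 and Ltbp2 were the 2 of 9 members called, both higher, where 5.21% of 13348 genes were called, 4.07% higher and 1.15% lower. Ltbp2 alone passed the thresholds of the study, as 2.32% of genes did (2.16% higher). The 9 had a median log2 fold change of 0.19 beside -0.02 over all genes, and the groups did not overlap for 3 members (Tgfb2, Ltbp1 and Ltbp2), all higher, beside 24.2% of all genes (13.6% higher).

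**Figure D1:**
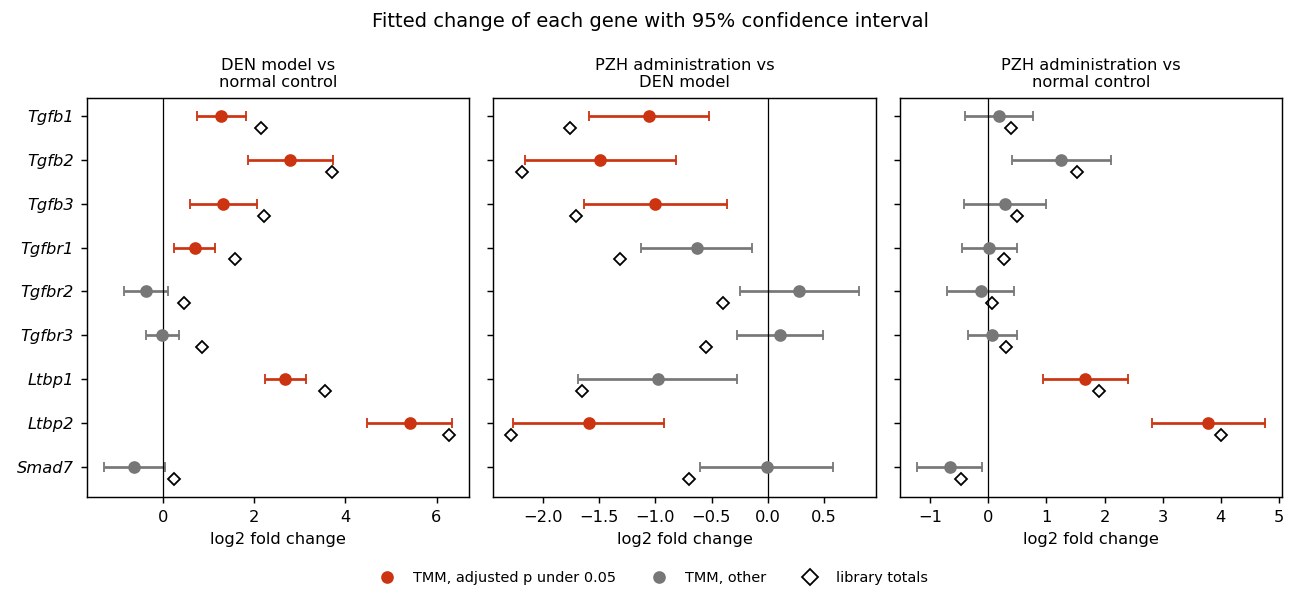
Log2 fold change of each of the 9 genes in the 3 comparisons, with bars for the 95% interval of the edgeR quasi-likelihood fit and points with an adjusted p under 0.05 marked. Ltbp2 stands highest in DEN model against normal control rats at 5.41, and Tgfbr2, Tgfbr3 and Smad7 have intervals that reach 0 in both comparisons with the DEN model.

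Tgfb1 encodes the ligand with the highest FPKM of the 3 in these livers. Its level in normal control rats was 19.4, 19.7 and 12.2 CPM, in DEN model rats 49.2, 33.0 and 40.8 CPM, and in PZH administration rats 22.3, 21.1 and 14.5 CPM. Every DEN model rat lay above every other rat, and the normal control and PZH administration rats overlapped. Tgfb1 was higher in DEN model than in normal control rats by 1.28 on the log2 scale (SE 0.24, 95% interval 0.74 to 1.82, adjusted p = 0.0031, edgeR). PZH administration rats differed from DEN model rats by -1.06 (SE 0.23, -1.59 to -0.52, adjusted p = 0.022, edgeR). The difference between PZH administration and normal control rats was 0.19 (SE 0.26, -0.40 to 0.77, adjusted p = 0.78, edgeR), an interval that still allows a difference in either direction.

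Tgfb2, a ligand with restricted expression in healthy adult liver, had the lowest FPKM of the 3. It was at 2.26, 2.36 and 5.03 CPM in normal control rats, at 29.6, 13.4 and 23.4 CPM in DEN model rats and at 7.55, 7.44 and 8.25 CPM in PZH administration rats. The 3 groups did not overlap, with PZH administration rats between the others and close to each other. The DEN model level was 6.94 times the normal control level (log2 fold change 2.79, SE 0.41, adjusted p = 0.0011, edgeR), the widest difference among the ligands. Against the DEN model, PZH administration rats differed by -1.49 (SE 0.29, -2.16 to -0.82, adjusted p = 0.016, edgeR). Against normal control rats they differed by 1.26 (SE 0.37, 0.41 to 2.11, adjusted p = 0.095, edgeR), short of the threshold, and it was called by DESeq2 (adjusted p = 0.023), under library totals (adjusted p = 0.033, edgeR) and without N3 (adjusted p = 0.029, edgeR).

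Tgfb3 was at 7.57, 11.1 and 5.37 CPM in normal control rats, at 22.2, 13.5 and 24.0 CPM in DEN model rats and at 9.55, 12.1 and 7.69 CPM in PZH administration rats. The lowest DEN model rat, M17, lay only a little above the highest PZH administration rat. The DEN model differed from normal control by 1.32 (SE 0.32, 0.59 to 2.06, adjusted p = 0.01, edgeR), close to the value of Tgfb1. PZH administration differed from the DEN model by -1.0 (SE 0.28, -1.64 to -0.36, adjusted p = 0.041, edgeR), and from normal control by 0.29 (SE 0.31, -0.41 to 1.00, adjusted p = 0.70, edgeR).

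Per length, the ligands can be compared with each other, and FPKM serves for this. Mean FPKM in normal control rats was 6.25 ± 1.82 for Tgfb1, 2.40 ± 0.953 for Tgfb3 and 0.508 ± 0.22 for Tgfb2 (SD, n = 3). In DEN model rats the same order held, with 27.7 ± 8.01, 11.1 ± 4.3 and 6.69 ± 2.98 FPKM. PZH administration rats had 8.18 ± 1.56, 3.40 ± 0.796 and 1.46 ± 0.133 FPKM. FPKM follows library totals and not TMM factors, so its differences between groups include the shift of the median gene given above. Within a rat that scaling cancels, and the share of each ligand in the summed FPKM of the 3 can be set side by side. Tgfb1 made up 67.9% ± 4.42 in normal control, 61.7% ± 4.24 in DEN model and 62.5% ± 3.72 in PZH administration rats. Tgfb2 made up 6.38% ± 4.76, 14.3% ± 2.23 and 11.5% ± 2.98, and Tgfb3 25.7% ± 4.12, 24.1% ± 3.11 and 26% ± 2.73. The Tgfb2 share was 7.87 percentage points higher in DEN model than in normal control rats, and the normal control range (3.5% to 11.9%) met the DEN model range (11.9% to 16.3%). The exact two-sided permutation test gave p = 0.2 for it (0.54 after adjustment over 9 tests of shares), and 0.1 is the smallest p that 3 rats against 3 allow.

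**Figure D2:**
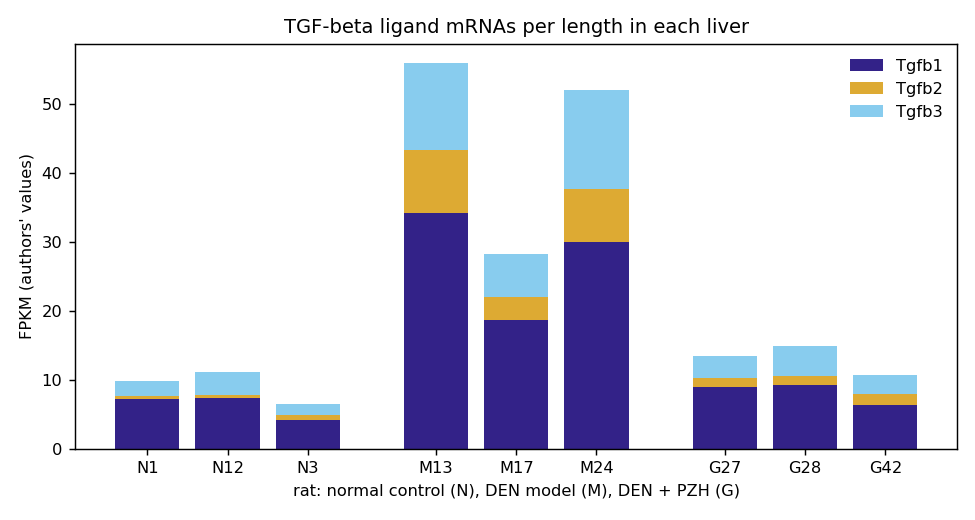
FPKM of the 3 ligands in each rat. Tgfb1 holds most of the sum in all 9 rats, and the sum itself is highest in the DEN model rats (28.3 to 55.9 FPKM).

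Ltbp1 and Ltbp2 belong to the fibrillin family of matrix proteins. LTBP1 binds latent TGF-beta covalently, whereas LTBP2 is a related protein of elastic fibres that does not bind latent TGF-beta. Ltbp2 was barely present in normal control livers, at 2.11, 1.53 and 0.587 CPM from 27, 20 and 7 counts. DEN model rats had 59.0, 42.4 and 77.1 CPM, and PZH administration rats 15, 26.7 and 16.5 CPM. The 3 groups did not overlap, and each PZH administration rat lay between the highest normal control rat and the lowest DEN model rat. The difference between DEN model and normal control rats was 5.41 (SE 0.41, 4.47 to 6.34, adjusted p = 9.5e-05, edgeR), higher than the log2 fold change of 97.7% of the genes tested. PZH administration rats differed from DEN model rats by -1.59 (SE 0.30, -2.27 to -0.92, adjusted p = 0.014, edgeR). They were still above normal control rats by 3.78 (SE 0.43, 2.81 to 4.76, adjusted p = 0.0038, edgeR), a 13.8-fold difference.

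Ltbp1 was at 12.3, 15.5 and 12.0 CPM in normal control rats. DEN model rats had 85.8, 71.1 and 96.5 CPM and PZH administration rats 23.9, 58.8 and 43.9 CPM. Again the groups did not overlap, but the PZH administration rats were spread from near the normal control level to near the DEN model level. Ltbp1 differed between DEN model and normal control rats by 2.68 (SE 0.20, 2.24 to 3.13, adjusted p = 8.4e-05, edgeR). The value for PZH administration against the DEN model was -0.98 (SE 0.31, -1.69 to -0.27) and missed the threshold (adjusted p = 0.058, edgeR). DESeq2 (adjusted p = 0.022) and a fit of all 9 rats together in edgeR (adjusted p = 0.033) called it. PZH administration rats lay above normal control rats by 1.67 (SE 0.32, 0.95 to 2.40, adjusted p = 0.02, edgeR), a call kept in 1 of the 6 fits that left out a rat, that without G27 (adjusted p 0.0016 to 0.089).

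Tgfbr2, the type II receptor kinase that binds the ligand first, had the highest FPKM of the 9 members in every group. It was at 146, 120 and 87.8 CPM in normal control rats, 89.0, 96.6 and 83.6 CPM in DEN model rats and 140, 95.4 and 84.5 CPM in PZH administration rats. The 3 groups overlapped, and the DEN model rats were the closest together. The log2 difference between DEN model and normal control rats was -0.38 (SE 0.21, -0.86 to 0.11, adjusted p = 0.18, edgeR), and that between PZH administration and DEN model rats was 0.28 (SE 0.23, -0.25 to 0.81, adjusted p = 0.43, edgeR). With library totals in place of TMM factors these turned to 0.46 and -0.40, so no direction is given for Tgfbr2. Without N3, edgeR called it lower in DEN model than in normal control rats (-0.55, adjusted p = 0.037).

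Tgfbr1, the type I receptor kinase that phosphorylates the Smads, was at 46.8, 44.8 and 56.3 CPM in normal control rats. DEN model rats had 90.8, 61.2 and 84.9 CPM and PZH administration rats 42, 60.0 and 48.1 CPM. Every DEN model rat was above every other rat, although M17 lay just above the highest PZH administration rat. Tgfbr1 was higher in DEN model than in normal control rats by 0.70 (SE 0.20, 0.24 to 1.15, adjusted p = 0.021, edgeR), a call kept in 2 of the 6 fits that left out a rat and lost without M13, M24, N1 or N12 (adjusted p 0.0075 to 0.087). The value for PZH administration against the DEN model was -0.63 (SE 0.22, -1.13 to -0.14, adjusted p = 0.074, edgeR). It was called in 6 of 14 alternatives, among them the fit of all 9 rats in edgeR (adjusted p = 0.045), library totals and the fit without M17. That for PZH administration against normal control was 0.02 (SE 0.21, -0.45 to 0.50, adjusted p = 0.97, edgeR).

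Tgfbr3 encodes betaglycan, the coreceptor that presents Tgfb2 in particular to the type II receptor. It was at 39.6, 46.7 and 43.2 CPM in normal control rats, 46.5, 43.3 and 37.9 CPM in DEN model rats and 39.3, 49.5 and 46.8 CPM in PZH administration rats. All 3 groups overlapped, and the lowest and highest of the 9 rats were 37.9 and 49.5 CPM. The DEN model differed from normal control by -0.01 (SE 0.16, -0.37 to 0.36, adjusted p = 0.98, edgeR) and PZH administration from the DEN model by 0.11 (SE 0.17, -0.27 to 0.49, adjusted p = 0.68, edgeR). Under library totals the first became 0.85, past the threshold (adjusted p = 0.004, edgeR), a shift about equal to that of the median of all genes, and the second became -0.55.

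Smad7 was at 33.0, 33.3 and 19.2 CPM in normal control rats, at 25.2, 13.9 and 15.6 CPM in DEN model rats and at 20.0, 17.5 and 15.9 CPM in PZH administration rats. The DEN model rats overlapped both other groups, and 1 normal control rat, N3, fell among them. The log2 difference between DEN model and normal control rats was -0.63 (SE 0.29, -1.29 to 0.04, adjusted p = 0.11, edgeR), and library totals turned it to 0.24. EdgeR called it lower without M13 (-0.93, adjusted p = 0.04) and without N3 (-0.85, adjusted p = 0.04). PZH administration and DEN model rats differed by -0.01 (SE 0.26, -0.60 to 0.58, adjusted p = 0.99, edgeR). PZH administration and normal control rats differed by -0.66 (SE 0.24, -1.22 to -0.11, adjusted p = 0.18, edgeR).

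Ordered by FPKM, Tgfbr2 stood first in each group, at 33.1 ± 9.43 in normal control, 45.7 ± 3.04 in DEN model and 34.6 ± 7.86 in PZH administration rats, and its range did not overlap that of the next member, Tgfb1. Ltbp2 had the lowest mean in normal control rats (0.11 ± 0.0625 FPKM), below the range of every other member. Smad7 had the lowest mean in DEN model rats (6.13 ± 2.43 FPKM) and Tgfb2 in PZH administration rats, but each overlapped the member before it (Tgfb2 and Ltbp2). Ltbp2 had 8.62 ± 3.47 FPKM in DEN model and 1.76 ± 0.617 FPKM in PZH administration rats. From the second place down, neighbours in the DEN model order overlapped in range. Ltbp1 moved from 1.65 ± 0.297 FPKM in normal control to 19.5 ± 5.33 FPKM in DEN model and 6.23 ± 2.75 FPKM in PZH administration rats.

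The DEN model rats did not contribute alike. M17 had the lowest CPM of the 3 for 7 of the 9 members, and M24 for Tgfbr2 and Tgfbr3. M13 was the highest for 5 members, M24 for 3 and M17 for Tgfbr2. M17 was also the DEN model rat with the highest hepatocyte marker sum (77500 CPM, against 34300 CPM in M24) and the lowest myofibroblast marker sum (806 CPM, against 2550 CPM in M24). Without M13, 0 of the 4 calls between PZH administration and DEN model rats remained (edgeR), where calls over all genes went from 2722 to 271. The log2 fold changes of the called members over the 6 fits that each left out 1 rat stayed between -1.21 and -0.87 for Tgfb1, -1.76 and -1.22 for Tgfb2, -1.23 and -0.84 for Tgfb3 and -1.88 and -1.36 for Ltbp2. They were called in 2, 3, 1 and 5 of those 6 fits, with adjusted p (edgeR) of 0.013 to 0.093, 0.0026 to 0.068, 0.014 to 0.15 and 0.0058 to 0.058. Tgfb1 lost its call without M13, M24, G28 or G42, Tgfb2 without M13, M24 or G28, Tgfb3 without any rat but M17, and Ltbp2 without M13. Between DEN model and normal control rats the calls of the 3 ligands and both latency proteins were kept in 6 of 6 fits.

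The rest of the pathway was read from 5 lists, also chosen with earlier results of these data known. They held 103 genes in all, of which 96 were tested between DEN model and normal control rats. Of these, 43 were called higher and 20 lower, with a median log2 fold change of 0.48 beside 0.03 over all genes, where 25.3% of all genes were called higher and 20.5% lower. Between PZH administration and DEN model rats 7 of 96 were called higher and 29 lower (median -0.33, beside 8.72% and 10.3% of all genes). The total went from 36 to 6 without M13, 17 without M24 or without G28 and 22 without G42. Calls over all genes went from 2722 to 271, 725, 1178 and 1221 without M13, M24, G28 and G42. The counts of the single lists in this comparison come from the same 6 rats. Between PZH administration and normal control rats 14 of 92 genes were called higher and 2 lower (median 0.13, beside 4.07% and 1.15%). Fn1, Pmepa1 and Skil each stand in 2 lists.

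Of 21 other genes of latency and activation, 13 were called higher in DEN model than in normal control rats, 1 was called lower and the rest did not pass the test (median 1.59, with 25.3% of all genes called higher). The other latent TGF-beta binding proteins, Ltbp3 and Ltbp4, were higher by 2.49 (adjusted p = 0.0017, edgeR) and 1.60 (adjusted p = 0.0013, edgeR). Itgb6, the integrin subunit of epithelia that activates latent TGF-beta, was higher by 6.06 (adjusted p = 0.00024, edgeR), and Itgb8 by 3.82 (adjusted p = 0.00027, edgeR). The normal control rats together held only 18 counts of Itgb6 and 24 of Itgb8, so the size of these folds is uncertain. Thbs1, a matrix glycoprotein that can release the ligand, was higher by 2.71 and Fbn1, the fibrillin to which the complex is anchored, by 3.61. The gene called lower was Furin, the protease that cleaves the propeptide, at -1.18 (adjusted p = 0.0084, edgeR). In the comparison of PZH administration with DEN model rats 10 of the 21 were called lower and 0 higher (median -0.77, edgeR), beside 10.3% and 8.72% of all genes. Among them were Thbs1 at -1.93, Fbn1 at -1.84, Itgb6 at -1.92 and Ltbp3 at -1.08. Itgb6 was still 4.09 above normal control in PZH administration rats (adjusted p = 0.019, edgeR), against the same few normal control counts.

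Of 8 receptor partners and extracellular binders, 6 were called higher in DEN model rats (median 1.96, beside 25.3% of all genes called higher), among them the decoy receptor Bambi at 1.84 and the proteoglycan decorin (Dcn), which binds TGF-beta, at 3.28. With PZH, edgeR called 0 of the 8 against the DEN model (median -0.78), beside 8.72% of all genes called higher and 10.3% lower (median 0.01). Of the 8, 4 had an unadjusted p under 0.05 in edgeR. DESeq2 called 4 of the 8, and 3781 over all genes.

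The Smads and their regulators went both ways. Of 18 genes, 5 were called higher and 5 lower in DEN model rats (median 0.06), near the 25.3% and 20.5% of all genes, and library totals turned the sign of 3 of the called genes, Ppm1a, Usp15 and Ldlrad4. Smad3 was higher by 0.97 (adjusted p = 0.0098, edgeR), Smad2 was at 0.30 (adjusted p = 0.19) and Smad4 at 0.00 (adjusted p = 1.0, edgeR). Smad6, the inhibitory relative of Smad7, was at -0.86 (adjusted p = 0.026, edgeR), and Pmepa1, a membrane protein that sequesters Smads, at 3.13 (adjusted p = 0.00078, edgeR). In PZH administration rats 1 was called higher and 4 lower than in DEN model rats (median -0.09, beside 8.72% and 10.3% of all genes), and the gene called higher was Ppm1a, whose sign library totals turned. Among the 4 called lower were Smad3 at -0.74 (adjusted p = 0.028, edgeR) and Pmepa1 at -1.93 (adjusted p = 0.015, edgeR). Against normal control rats edgeR called 0 of the 18, beside 5.21% of all genes, with 3 of the 18 at an unadjusted p under 0.05. DESeq2 called 2 of the 18, and 1320 over all genes, where edgeR called 696.

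Among genes known to respond to TGF-beta, 13 of 23 tested were called higher and 4 lower in DEN model rats (median 2.32, beside 25.3% and 20.5% of all genes). Ctgf, a matricellular growth factor, was higher by 2.98 (adjusted p = 0.00063, edgeR) and Col1a1, a collagen chain, by 5.40 (adjusted p = 0.0008, edgeR). Among the genes called lower, Tgfbi, a matrix protein, was at -2.09, Nox4, an NADPH oxidase, at -4.80, the cell cycle inhibitor Cdkn1a at -1.58 and the transcription factor Klf10 at -0.69, whose sign library totals turned. With PZH 12 were called lower and 2 higher than in the DEN model (median -1.43, beside 10.3% and 8.72% of all genes), with Ctgf at -2.24 and Col1a1 at -2.40, and with Tgfbi at 1.38 and Nox4 at 3.90. Postn had no count in any normal control rat and was at least 41.3-fold higher in DEN model rats against the floor of 3 counts per library. Placing it at that bound left the median at 2.32.

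The activin and BMP branch, a sister pathway with its own ligands, had 7 of 29 called higher and 10 lower in DEN model rats (median -0.04), where the shares of all genes were 25.3% and 20.5%. Library totals turned the sign of 1 of the genes called lower, Acvr2a. The activin subunit gene Inhbb was higher by 4.53, against only 21 counts over the 3 normal control rats. Its antagonist Fst had 4 counts over the 3 normal control rats, too few for a fold change, and 3.86 to 15.9 CPM in DEN model rats. In contrast, Inhbc, an activin subunit made by hepatocytes, was at -3.62, and Hamp, the iron hormone that BMP signals induce, at -2.99 (adjusted p = 0.00014, edgeR). Between PZH administration and DEN model rats 4 were called higher and 4 lower (median 0.16), beside 8.72% and 10.3% of all genes.

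**Figure D3:**
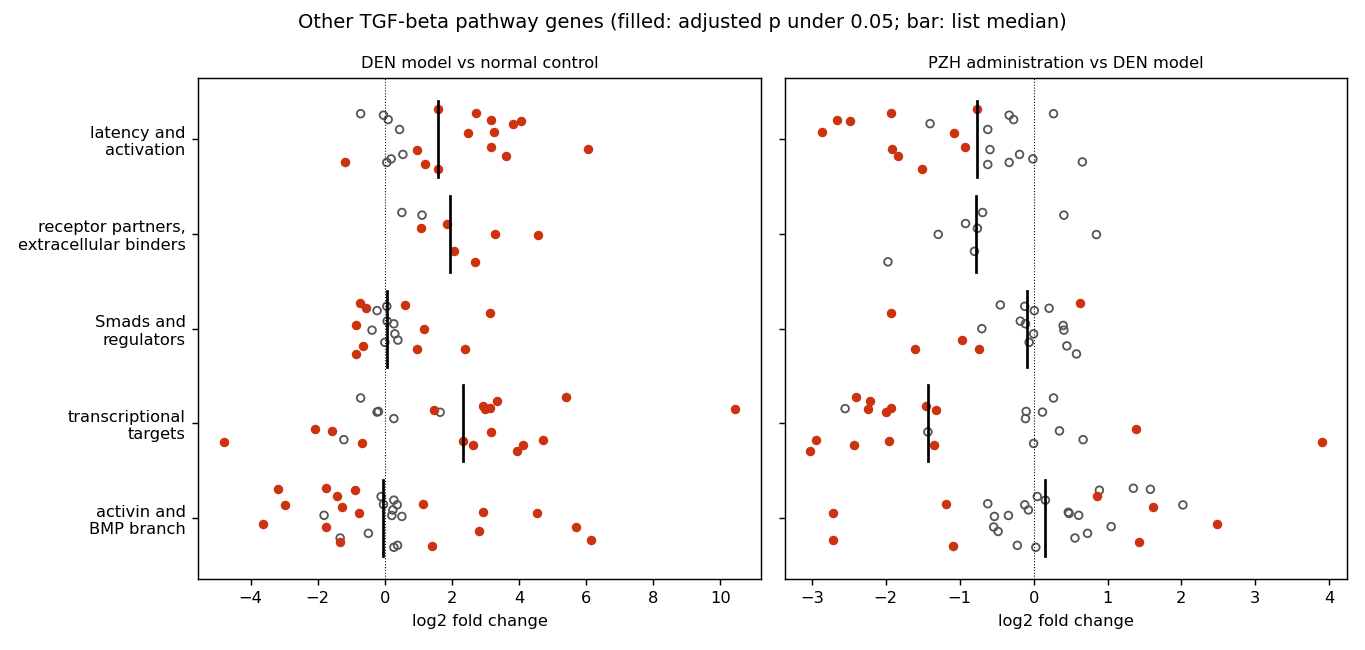
Log2 fold change of the genes of the 5 lists in DEN model against normal control and in PZH administration against DEN model rats, 1 point per gene, filled where edgeR's adjusted p is under 0.05, with a line at the median. Latency genes and target genes lie mostly above 0 in the first comparison (medians 1.59 and 2.32) and below 0 in the second (medians -0.77 and -1.43). Postn, fitted with 0 counts in normal control rats, has no interpretable position beyond its bound. Fst and Grem1, each with 4 counts over the 3 normal control rats, have too few for an interpretable position in the first comparison.

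Markers of several liver cell types also differed between the groups, in a comparison of DEN model with normal control rats where 25.3% of all genes were called higher and 20.5% lower. Summed over 7 myofibroblast markers, normal control rats had 135 to 239 CPM, DEN model rats 806 to 2550 CPM and PZH administration rats 448 to 539 CPM, and 7 of 7 were called higher in DEN model rats, with Postn and Fap at 0 in normal control. Of these genes, 5 (Acta2, Tagln, Col1a1, Col3a1 and Postn) also stand in the list of target genes. The 6 cholangiocyte markers summed to 13.3 to 21.0 CPM, 235 to 756 CPM and 80.8 to 107 CPM in the same order of groups, and 6 of 6 were called higher in DEN model rats. The quiescent stellate cell sum was 178 to 184 CPM in normal control, 303 to 431 CPM in DEN model and 200 to 233 CPM in PZH administration rats, with 3 of 5 called higher. Those 3 were Pdgfrb (2.36), Des (2.13) and Reln (1.24). In contrast, Lrat (0.46, adjusted p = 0.18, edgeR) and Hgf (-0.25, adjusted p = 0.44, edgeR) did not pass the test, so the list did not rise as a whole. Lymphocyte markers summed to 26.1 to 35.6 CPM, 68.0 to 159 CPM and 37.1 to 51.8 CPM, with 3 of 6 called higher.

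Sinusoidal endothelial markers summed to 477 to 537 CPM in normal control, 170 to 321 CPM in DEN model and 384 to 475 CPM in PZH administration rats, with 4 of 6 called lower in DEN model rats, among them Lyve1, whose sign library totals turned. Macrophage markers summed to 501 to 907 CPM, 418 to 541 CPM and 237 to 556 CPM, ranges that overlap. Of the 7, Clec4f (-1.28), Marco (-2.72) and Vsig4 (-1.54) were called lower, while Adgre1 (0.57), Cd68 (0.50) and Csf1r (0.53) had positive values that did not pass the test. Hepatocyte markers were called lower in 3 of 7, beside 20.5% of all genes. DESeq2 called 6 of the 7, and 6842 over all genes, where edgeR called 6529. Markers of gut epithelium, which a normal liver lacks, summed to 0.168 to 0.839 CPM in normal control, with Gucy2c and Slc15a1 at 0, and to 49.1 to 111 CPM in DEN model and 3.45 to 16.1 CPM in PZH administration rats, and 3 of 3 tested were called higher in DEN model rats. The part of these cell types in the levels of the 9 members was not tested.

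**Figure D4:**
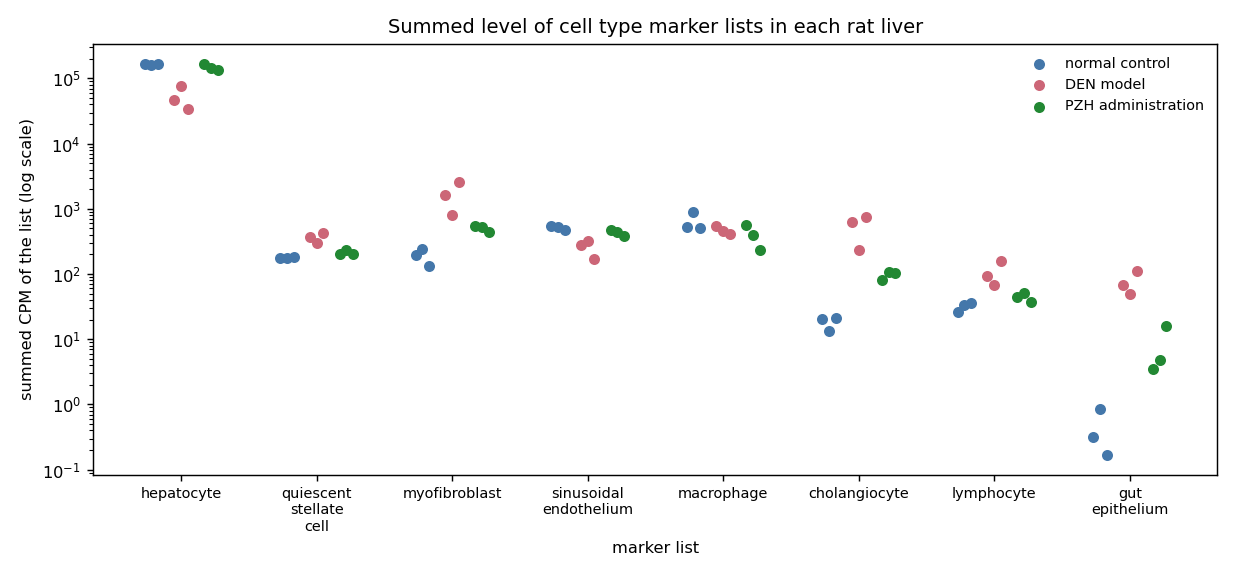
Summed CPM of the marker genes of 8 cell types on a log axis, 1 point per rat. Myofibroblast, cholangiocyte and gut epithelium sums are highest in the DEN model rats, and hepatocyte and sinusoidal endothelium sums are lowest in them.

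Across the 9 rats, the genes nearest to each member were found by the mean absolute difference of centred log2 CPM among 11954 genes. Nearest to Tgfb1 were Nfkbie (0.0594) and Btbd10 (0.0877), to Tgfb2 Tuft1 (0.215) and Ttc26 (0.241), and to Tgfb3 Src (0.119) and Syk (0.123). Nearest to Ltbp1 were Abcc1 (0.134) and Cysltr1 (0.143), and to Ltbp2 Ddr1 (0.234) and Sox9 (0.258). The receptors had Rin2 (0.0862) for Tgfbr1, Dhx38 (0.0355) for Tgfbr2 and Jmjd1c (0.0697) for Tgfbr3, and Smad7 had Camlg (0.0985). The 9 rats share their libraries and groups in all of these values, which are a description without a test.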

How the data were processed

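Liver mRNA libraries of 9 rats were compared, 3 per group. The authors deposited whole-number read counts per gene, which were not normalized, and FPKM values of the same genes. The deposited FPKM equalled the count over gene length and library total, with no further scaling between rats. The submitters' processing notes name fastp, HISAT2 2.1.0, StringTie 1.3.3b and edgeR 3.30.3. The read counter, genome build and annotation are not given in the sources used here. The columns of the authors' own fold changes and p-values were not used.

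For each comparison, its 6 rats were fitted in edgeR 4.0.16 (R 4.3.3) after filterByExpr and TMM scaling. Groups were tested with glmQLFTest (quasi-likelihood), and no covariate was used. P-values were adjusted by Benjamini-Hochberg over all genes tested, and a gene was called under 0.05. The SE was the log2 fold change over the square root of the F statistic. Intervals are 95% intervals of that fit, and floors cover counting error only. The rats' numbers show separate animals, and nothing pairs them across groups. No libraries were identical. The test was checked on simulated data in which few genes changed, evenly up and down. That setting lacks the wide group differences seen here, so it does not check the choice of scaling. Alternatives were DESeq2 1.42.0, library totals, leaving the low counts unfiltered, requiring 10 or more counts in every rat, a fit of all 9 rats, limma 3.58.1 on log2(FPKM + 0.1) with means of at least 0.1 FPKM or no filter, limma on log2(FPKM + 1), the thresholds of the study, and leaving out each rat in turn. A result on 1 gene of the lists is not reported here. The members, lists and named genes were chosen with earlier results of these data known. Named genes are the 9 members, genes of the lists and, for each member, the 2 protein-coding genes closest by mean absolute difference of centred log2 CPM, with a mean of at least 1 CPM and a prior count of 0.5. Gene symbols were matched to RefSeq promoter windows (GRCr8), and all 9 matched.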

Additional observations from a re-analysis of the deposited data

How the results depend on the processing

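Of the alternatives to the members' log2 fold changes, 296 kept direction and side of the threshold, 24 lost a call, 18 gained a call without turning sign, and 38 turned sign, the last only for Tgfbr1, Tgfbr2, Tgfbr3 and Smad7. Between DEN model and normal control rats, library totals, limma on log2(FPKM + 0.1) with and without the filter, and limma on log2(FPKM + 1) gave 0.46, 0.50, 0.50 and 0.49 for Tgfbr2, 0.85, 0.84, 0.84 and 0.75 for Tgfbr3 and 0.24, 0.22, 0.22 and 0.19 for Smad7. For PZH administration against the DEN model the same settings gave -0.40, -0.42, -0.42 and -0.41 for Tgfbr2 and -0.55, -0.55, -0.55 and -0.49 for Tgfbr3, and against normal control 0.07, 0.08, 0.08 and 0.08 for Tgfbr2. These 4 settings share the scaling by library totals, and each of them also called Tgfbr3 higher in DEN model rats. Folds of called members moved too: between DEN model and normal control library totals put Tgfb1 at 2.14 and Tgfbr1 at 1.59, and limma on log2(FPKM + 1), whose pseudocount shrinks the folds of low genes, put Ltbp2 at 1.29 between PZH administration and normal control. Tgfbr3 in DEN model against normal control was also 0.01 without the filter and 0.10 with at least 10 counts in every rat, and Smad7 in PZH administration against the DEN model was 0.0043 by DESeq2, all values near 0 whose cause was not tested. Leaving out 1 rat put Tgfbr3 between -0.09 and 0.08 in the first comparison, Smad7 between -0.19 and 0.30 in the second, and in PZH administration against normal control Tgfbr1 between -0.13 and 0.15, Tgfbr2 between -0.39 and 0.02 and Tgfbr3 between -0.02 and 0.15.

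The thresholds of the study left 3 of 6 members and 33 of 63 pathway genes between DEN model and normal control, 0 of 4 and 9 of 36 between PZH administration and the DEN model, and 1 of 2 and 6 of 16 between PZH administration and normal control. Over all genes 1753, 347 and 310 passed them in the same order, beside 6529, 2722 and 696 called. For the first and second of these comparisons the study itself reported more genes. Between PZH administration and the DEN model, library totals called 59 pathway genes (4 higher and 55 lower, beside 7 and 29) and limma on log2(FPKM + 0.1) called 55, while calls over all genes went from 2722 to 6232 and 5764. In DEN model against normal control library totals called 68 pathway genes higher and 8 lower, beside 43 and 20, while calls over all genes went from 6529 to 9079. Between PZH administration and normal control, DESeq2 called 25 pathway genes, and at least 10 counts in every rat (which removed Ltbp2), limma on log2(FPKM + 1) and limma without the filter each called 1 member. Calls over all genes went from 696 to 1320 by DESeq2, and to 340, 526 and 495 in the other settings, in the order given.

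Leaving out 1 rat gave 0 to 5 members and 6 to 42 pathway genes between PZH administration and the DEN model, with 0, 1 and 1 members without M13, M24 and G28, 2 without G42, and 6, 17, 17 and 22 pathway genes in the same order. It gave 1 to 2 members and 5 to 21 pathway genes between PZH administration and normal control, with 1 member without G28, G42, N1 or N12, with Ltbp2 and Tgfb2 without N3, and with 6 and 5 pathway genes without G28 and N1. The counts between DEN model and normal control were 5 to 8 members and 53 to 63 pathway genes, and the members added were Smad7 (without M13 or N3) and Tgfbr2 (without N3), both lower. Over all genes these fits called 271 to 3319, 207 to 1326 and 4724 to 6790, in the order of the comparisons above. The main fits called 2722, 696 and 6529 genes. Without G28 and N1, 212 and 207 genes were called between PZH administration and normal control.

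No paired analysis was possible because the groups share no rat numbers. The depth limits Ltbp2 most, with 7 to 27 counts in normal control rats.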
